A study of Mus musculus with 8 samples.

Results

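The transcripts examined here are those of 41 mitosis and spindle genes in DN3 thymocytes, the CD4- CD8- thymus cells that rearrange Tcrb and pass the β-selection checkpoint. The genes were chosen by name: the A- and B-type cyclins with CDK1, the mitotic kinases, the spindle checkpoint, the partners of the anaphase-promoting complex, the chromosomal passenger subunits, and the kinesin, kinetochore, cytokinesis and chromosome structure genes. All 41 symbols were found among the 16538 genes of the deposited RPKM table (reads per kilobase of gene, scaled to the reads counted in each library). There were 8 RNA-seq libraries from C57BL/6 mice aged 6 weeks. In 4 control libraries the genotype was Sel1l-f/f, that is, floxed Sel1l alleles without Cre. In 4 Sel1l CKO libraries it was Sel1l-f/f hCD2cre+, in which a Cre driven by human CD2 sequences deletes the floxed gene in lymphoid cells. SEL1L is the adaptor of the HRD1 ubiquitin ligase in endoplasmic reticulum-associated degradation, and the study asked how its loss affects thymocytes at β-selection. The labels number the libraries 1 to 4 in each genotype and name neither the animals nor a batch. The study's methods describe replicates as independent and biological, and p-values measure the spread between these libraries. Replicates 1 and 2 and replicates 3 and 4 are also described apart, as 2 sets.

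Entry into mitosis is driven by CDK1 bound to cyclin A or B, and the polo-like and aurora kinases then build the spindle and recruit the kinetochore proteins. The spindle checkpoint holds back the anaphase-promoting complex until every kinetochore is attached. Once CDC20 activates that complex, securin and cyclin B are destroyed, the chromatids separate, and the central spindle proteins divide the cell. Most of these genes are transcribed together late in the cell cycle, through promoters that bind the MuvB complex with B-MYB and FOXM1 at a short element called the CHR (cell cycle genes homology region), often beside CCAAT boxes that bind NF-Y. In the thymus, DN3 cells rest while they rearrange Tcrb and divide rapidly once a pre-TCR is made, so a DN3 library holds both dividing and resting cells.

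The promoters of 7 genes are shown as examples. Cdc20, Nek2 and Plk1 had the highest log2 fold changes and Cenpf the lowest. Cdk1 and Mki67 were fixed for full description, and Pttg1 was the single member not lowest in control replicate 3. Each window runs from 250 bases before to 50 bases after the start of the gene in RefSeq (GRCm38.p6) and is written 5′ to 3′ on the strand of the gene. Capitals mark the motifs searched on both strands, which were TTTGAA or its reverse TTCAAA and TTCGAA for the CHR, and CCAAT or its reverse ATTGG for the CCAAT box.
Cdc20, chr4:118437294-118437593, minus strand: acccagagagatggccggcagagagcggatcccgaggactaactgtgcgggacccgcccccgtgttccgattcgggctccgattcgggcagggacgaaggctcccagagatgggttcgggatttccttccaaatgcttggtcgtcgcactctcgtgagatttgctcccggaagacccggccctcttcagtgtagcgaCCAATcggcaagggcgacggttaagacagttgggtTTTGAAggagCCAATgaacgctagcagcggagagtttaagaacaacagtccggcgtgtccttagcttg
Nek2, chr1:191821223-191821522, plus strand: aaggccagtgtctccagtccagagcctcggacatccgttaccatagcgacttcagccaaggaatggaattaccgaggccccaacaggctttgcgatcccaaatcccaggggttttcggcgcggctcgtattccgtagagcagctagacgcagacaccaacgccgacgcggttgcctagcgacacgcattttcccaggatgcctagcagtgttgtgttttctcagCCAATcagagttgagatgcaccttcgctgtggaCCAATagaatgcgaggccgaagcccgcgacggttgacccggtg
Plk1, chr7:122159185-122159484, plus strand: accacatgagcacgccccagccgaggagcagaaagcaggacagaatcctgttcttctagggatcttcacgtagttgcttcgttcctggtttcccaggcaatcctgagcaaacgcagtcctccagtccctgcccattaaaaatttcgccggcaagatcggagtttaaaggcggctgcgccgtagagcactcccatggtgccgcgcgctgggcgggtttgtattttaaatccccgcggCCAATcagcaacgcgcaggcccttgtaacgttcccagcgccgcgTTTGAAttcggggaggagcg
Cdk1, chr10:69352863-69353162, minus strand: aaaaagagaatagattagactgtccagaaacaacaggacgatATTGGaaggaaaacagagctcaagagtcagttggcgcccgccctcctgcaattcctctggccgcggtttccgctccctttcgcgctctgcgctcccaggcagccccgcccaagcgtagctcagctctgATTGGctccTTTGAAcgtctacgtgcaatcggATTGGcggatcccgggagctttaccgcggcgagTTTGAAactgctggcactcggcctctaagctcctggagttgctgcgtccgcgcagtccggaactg
Cenpf, chr1:189688037-189688336, minus strand: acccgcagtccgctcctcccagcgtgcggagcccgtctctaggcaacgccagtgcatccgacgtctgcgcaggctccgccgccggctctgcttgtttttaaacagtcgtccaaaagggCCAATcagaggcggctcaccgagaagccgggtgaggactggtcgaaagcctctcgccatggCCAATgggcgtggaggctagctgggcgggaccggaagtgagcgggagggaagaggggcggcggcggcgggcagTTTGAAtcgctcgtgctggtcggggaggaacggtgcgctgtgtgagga
Mki67, chr7:135716330-135716629, minus strand: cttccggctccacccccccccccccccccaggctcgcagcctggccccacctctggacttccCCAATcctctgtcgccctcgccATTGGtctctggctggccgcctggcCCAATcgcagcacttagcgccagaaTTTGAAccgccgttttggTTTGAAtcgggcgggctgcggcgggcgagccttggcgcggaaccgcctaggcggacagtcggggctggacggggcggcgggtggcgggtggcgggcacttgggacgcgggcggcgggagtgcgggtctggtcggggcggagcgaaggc
Pttg1, chr11:43425932-43426231, minus strand: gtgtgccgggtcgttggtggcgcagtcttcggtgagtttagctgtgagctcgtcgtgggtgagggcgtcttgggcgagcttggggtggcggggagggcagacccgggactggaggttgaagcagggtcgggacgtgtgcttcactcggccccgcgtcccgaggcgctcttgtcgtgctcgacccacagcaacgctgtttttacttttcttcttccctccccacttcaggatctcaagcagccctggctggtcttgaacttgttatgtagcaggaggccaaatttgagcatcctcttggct
In these windows Cdc20, Plk1, Cdk1, Cenpf and Mki67 held both motifs, Nek2 held CCAAT boxes alone, and Pttg1 held neither. The Pttg1 window lies wholly inside the annotated span of the gene (chr11:43420250-43426251). It therefore holds no bases before that annotated start, and motifs there were not searched.

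Promoter windows were given for 34 of the 41 genes. The CHR letters were found in 26 of the 34 (76.5%), against 21.7% of all 27025 genes with a window, and the CCAAT letters also in 26 (76.5%), against 41.1%. Both motifs were found in 23 members (67.6%), against 9.7% of all genes. Top2a, the topoisomerase that untangles chromatids, held the most CHR matches, with 4, beside 6 CCAAT matches. Among the tested members, the 24 with a CHR match had a median log2 fold change of 0.22 and the 8 without had 0.21, a comparison given without a test. Pttg1, whose window held no bases before its annotated start, counts among the 34 genes and among the 8 without. A match describes letters in a window and not a bound site.

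Depth and identity were checked first. The reads counted on genes ranged from 32900253 to 50401359 per library. Sel1l was 1.83, 1.66, 1.61 and 1.57 RPKM in control replicates 1 to 4 and 0.917, 0.876, 1.32 and 1.23 in Sel1l CKO replicates 1 to 4. All Sel1l CKO libraries lay below all control libraries, and the log2 fold change was -0.59 ± 0.13 (SE, n = 4 and 4; adjusted p = 0.0327 by limma, Benjamini-Hochberg). The difference was -0.89 in replicates 1 and 2 and -0.30 in replicates 3 and 4. All 15 DN3 markers were present, with a summed RPKM of 559 to 669 in control and 481 to 525 in Sel1l CKO libraries. None of the 14 that were tested passed, and Themis was too low for the test. The 10 markers of cells after β-selection summed to 48.4 to 57.1 in control and 39.5 to 48.2 in Sel1l CKO. The B cell genes Ms4a1 and Pax5 and the NK cell genes Klrb1c and Eomes were at or near 0 in every library. Summed levels of the other lists were low: early progenitor and DN2 markers 0.730 to 1.05 in control and 0.360 to 0.595 in Sel1l CKO, myeloid markers 2.28 to 2.54 and 0.821 to 1.89, dendritic cell markers 1.35 to 3.13 and 1.64 to 3.56, erythroid markers 0 to 1.12 and 0.465 to 2.66, γδ T cell markers 2.13 to 2.47 and 1.84 to 2.54, and thymic stroma markers 4.31 to 6.18 and 2.87 to 3.60. The B cell list (8.22 to 10.2 and 5.32 to 8.22) was nearly all Cd79b, and the NK list (57.4 to 68.0 and 44.2 to 53.8) was nearly all Nkg7 and Gzma. The single marker of these lists to pass the test was Epcam, an epithelial adhesion gene of the stroma list named after its values were seen, at 4.09, 4.09, 4.87 and 3.04 RPKM in control and 1.79, 1.995, 2.23 and 2.04 in Sel1l CKO. All Sel1l CKO libraries lay below all controls, and it fell, with a log2 fold change of -0.95 ± 0.13 (n = 4 and 4; adjusted p = 0.00273 by limma). The part of these differences in the results on mitosis genes was not tested.

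Levels were compared between genes on the exon-length scale, in which the reads are divided by the annotated exon length, because the deposited RPKM values divide by the whole gene with its introns. On this scale the control means of the 41 genes ran from 2.45 to 76.0 RPKM, with a median of 13.3. Top2a stood highest at 76.0 ± 14.5 (SD, n = 4), ahead of Cdc20 at 73.9 ± 19.3 and Mki67, which encodes the Ki-67 antigen of cycling cells, at 70.2 ± 19.9. The cyclin gene Ccnb2 followed at 63.8 ± 12.7, then Bub1b at 53.7 ± 11.6 and Plk1 at 50.04 ± 11.99. Each of these neighbours lay within 1 SD of the next. At the other end were Ttk at 3.91 ± 1.24, Anln at 3.66 ± 0.889, Aspm at 3.53 ± 1.07 and Cdc25c at 2.45 ± 0.555. Mad2l1 was left out of this order, since its deposited values fit neither its annotated exons nor its annotated span.

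Of the 41 genes, 38 had a mean of at least 1 RPKM and entered the test, which was limma on log2(RPKM + 0.1) over 6512 genes. None of the 38 rose or fell in Sel1l CKO at an adjusted p under 0.05, where 5.28% of all tested genes did (4.27% higher and 1.01% lower). None had an unadjusted p under 0.05 either, against 20.8% of all tested genes. The log2 fold changes were nevertheless mostly above 0: 34 of 38 were positive, against 52.6% of all tested genes, with a median of 0.22 against 0.01. They ranged from -0.15 in Cenpf to 0.44 in Cdc20. The standard errors ranged from 0.11 to 0.26 and the 95% intervals of all 38 held 0, while 30 of them reached above 0.5, so differences of that size could not be told from none with 4 libraries a group. No member separated the genotypes, with all Sel1l CKO libraries above or all below all control libraries, where 9.15% of tested genes lay wholly above and 5.59% wholly below. In bulk RNA, a different share of cells in mitosis and a different amount of mitotic RNA per cell cannot be told apart.

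**Figure D1:**
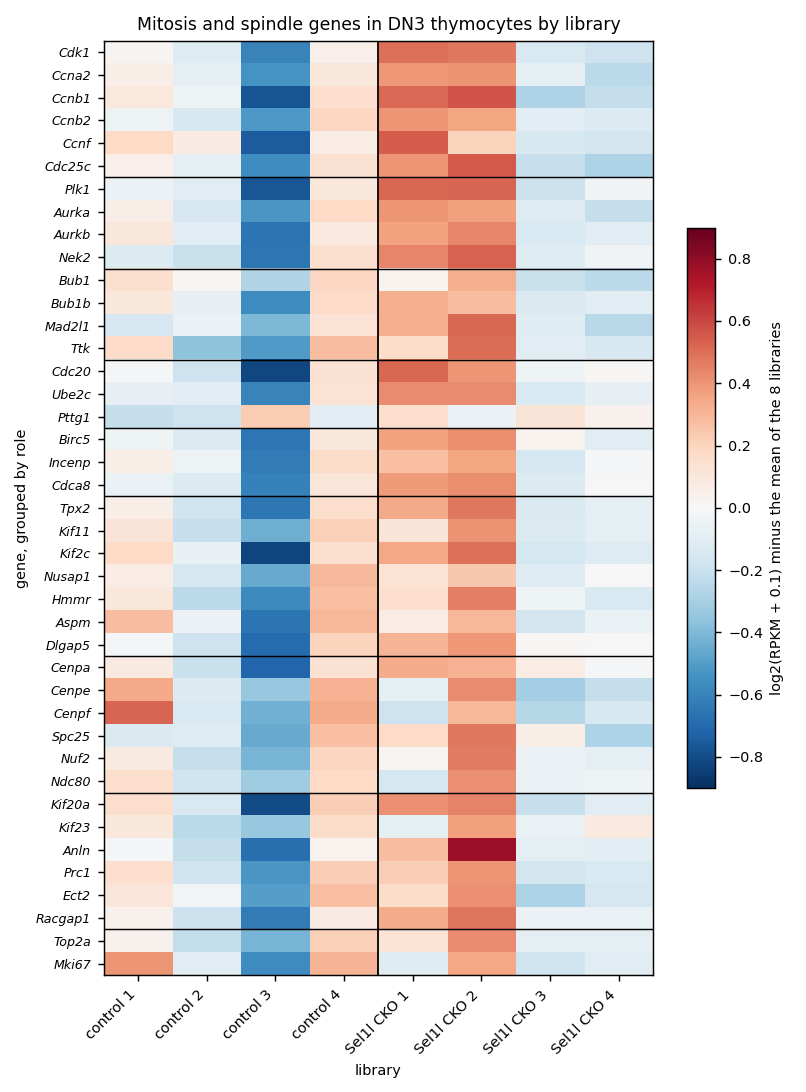
Heat map of the 41 mitosis and spindle genes (vertical, grouped by role with black lines) in the 8 libraries (horizontal, control left and Sel1l CKO right of the black line). Colour is log2(RPKM + 0.1) minus the mean of that gene over the 8 libraries, red above and blue below: control replicate 3 is blue for all genes but Pttg1, and Sel1l CKO replicates 1 and 2 are mostly red.

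What the genes shared was their order across libraries. Control replicate 3 was the lowest of the 8 libraries in 40 of 41 genes, against 19.1% of all tested genes. Sel1l CKO replicate 2 was the highest in 28 genes, against 21.4%, and Sel1l CKO replicate 1 was the highest in a further 8. The median deviation of the tested members from their mean over all libraries was 0.07, -0.13, -0.57 and 0.17 on the log2 scale in control replicates 1 to 4, and 0.33, 0.41, -0.12 and -0.09 in Sel1l CKO replicates 1 to 4. The level in control replicate 3 was between 51.3% and 133% of the mean of the other control libraries, with a median of 64.4%. The spread within a genotype was accordingly wide for these genes. The median SD on the log2 scale was 0.33 in control and 0.28 in Sel1l CKO, against 0.11 and 0.15 for all tested genes. Counting error was small beside it: the SD was 14.5% to 31.6% of the mean in control, while the reads recovered for a gene, from 290 to 48970, give a counting error of at most 0.725% to 5.87%. These intervals cover counting error only.

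Among the cyclins and CDK1, the kinase of mitotic entry, Cdk1 was 7.28, 6.60, 4.68 and 7.40 RPKM in control and 10.1, 9.96, 6.49 and 6.29 in Sel1l CKO. Ccnb1, the cyclin that activates it at the onset of mitosis, was 12.2, 11.1, 6.62 and 12.7 in control and 16.3, 17.0, 9.38 and 9.83 in Sel1l CKO. In both genes Sel1l CKO replicates 1 and 2 stood above every control library, while replicates 3 and 4 lay inside the control range. The log2 fold change was 0.32 ± 0.20 (SE, n = 4 and 4) in Cdk1, with an adjusted p of 0.393 by limma, and 0.29 ± 0.26 in Ccnb1, with an adjusted p of 0.548. Ccna2, the S and G2 cyclin, Ccnb2 and Ccnf, the F-box cyclin that targets proteins for destruction in G2, had log2 fold changes of 0.23, 0.26 and 0.22. All 5 tested genes of this role were positive. Cdc25c, the phosphatase that switches CDK1 on, was too low for the test, with 0.651 ± 0.147 RPKM (SD, n = 4) in control and 0.795 ± 0.258 in Sel1l CKO (exact permutation p = 0.371, two-sided).

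The 4 mitotic kinases included 2 of the 3 largest log2 fold changes. Plk1, which drives centrosome maturation and mitotic entry, was 11.4, 11.1, 6.91 and 12.7 RPKM in control and 17.0, 17.1, 10.3 and 11.6 in Sel1l CKO. Nek2, a centrosome kinase that parts the spindle poles, was 3.76, 3.56, 2.57 and 4.54 in control and 5.58, 5.96, 3.80 and 4.004 in Sel1l CKO. In both genes the 2 highest libraries were Sel1l CKO replicates 1 and 2, and replicates 3 and 4 overlapped the controls. The log2 fold change was 0.41 ± 0.22 in Plk1 (adjusted p = 0.338 by limma, n = 4 and 4) and 0.41 ± 0.19 in Nek2 (adjusted p = 0.265), the smallest adjusted p of all members. Aurkb, the kinase of the chromosomal passenger complex, which corrects faulty attachments, was 18.3, 15.8, 10.8 and 18.1 in control and 21.9, 23.2, 15.5 and 15.9 in Sel1l CKO, with a log2 fold change of 0.29 ± 0.19 (adjusted p = 0.432). Aurka, the kinase of the spindle poles, had a log2 fold change of 0.22 ± 0.19.

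Of the 3 tested spindle checkpoint genes 2 had a positive log2 fold change, and their median was 0.19. Bub1b, which encodes the checkpoint protein BUBR1 that holds CDC20 inactive, was 5.96, 5.26, 3.71 and 6.25 RPKM in control and 6.97, 6.74, 5.06 and 5.17 in Sel1l CKO, a log2 fold change of 0.19 ± 0.17 (adjusted p = 0.569 by limma, n = 4 and 4). Bub1, the kinase that brings the checkpoint proteins to the kinetochore, was 1.85, 1.68, 1.36 and 1.91 in control and 1.71, 2.11, 1.44 and 1.40 in Sel1l CKO, a log2 fold change of -0.04 ± 0.15 (adjusted p = 0.908). The genotypes overlapped throughout in Bub1, with its highest library among the Sel1l CKO and its lowest among the controls. Mad2l1, whose product binds CDC20 at unattached kinetochores, had a log2 fold change of 0.24. Ttk, the kinase at the top of the checkpoint, was below the filter, with 0.510 ± 0.161 RPKM (SD, n = 4) in control and 0.598 ± 0.150 in Sel1l CKO (exact permutation p = 0.457, two-sided).

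Cdc20, the activator of the anaphase-promoting complex, had the largest log2 fold change. It was 34.8, 30.8, 19.9 and 38.6 RPKM in control and 50.4, 46.3, 34.1 and 35.4 in Sel1l CKO, so that Sel1l CKO replicates 3 and 4 lay between the control libraries and replicates 1 and 2 above them. The log2 fold change was 0.44 ± 0.21 (n = 4 and 4; adjusted p = 0.268 by limma), with a 95% interval from -0.03 to 0.92. Ube2c, the ubiquitin-conjugating enzyme of the same complex, had a log2 fold change of 0.32. Pttg1, which encodes securin, was 1.85, 1.89, 2.56 and 2.02 in control and 2.42, 2.08, 2.35 and 2.22 in Sel1l CKO. It was the single member in which control replicate 3 was the highest library rather than the lowest, and its log2 fold change was 0.13 ± 0.11 (adjusted p = 0.512). Pttg1 was singled out after its values were seen, and with 439 to 630 reads a library its counting error was at most 4.77%.

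**Figure D2:**
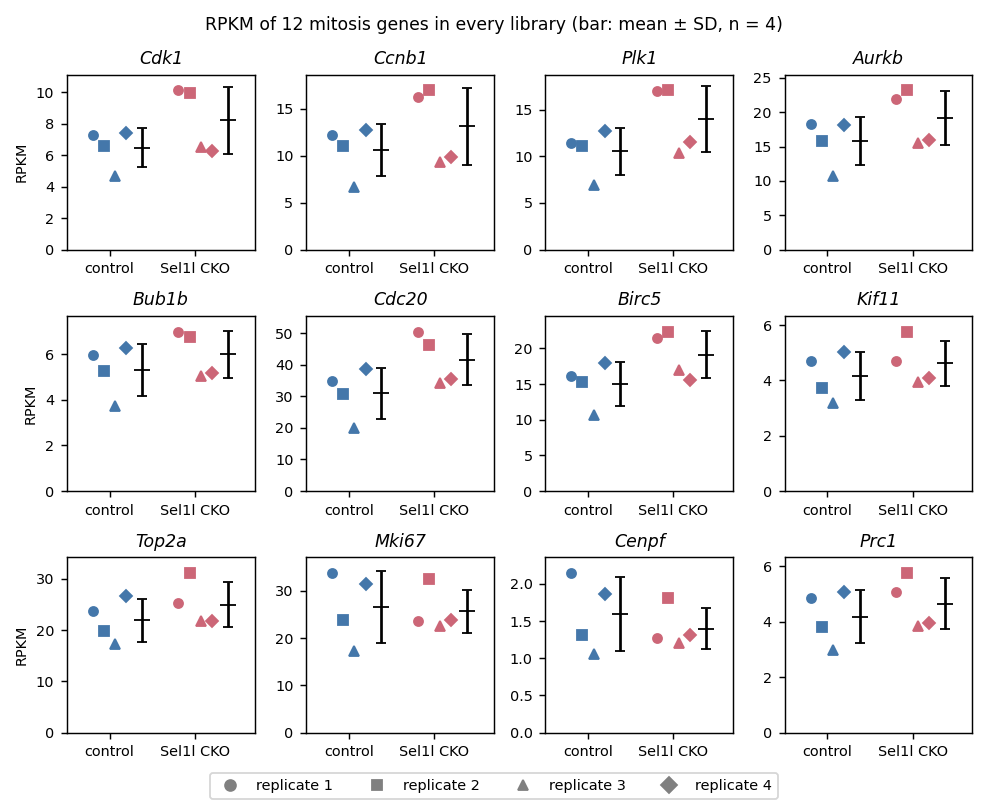
RPKM (vertical, linear from 0) of 12 mitosis genes in each control library (blue) and Sel1l CKO library (red), with the marker giving the replicate number and the black bar the mean ± SD (n = 4). In most panels Sel1l CKO replicates 1 and 2 lie highest and control replicate 3 lowest; Mki67 and Cenpf are highest in control replicate 1.

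All 3 chromosomal passenger subunits, which steer Aurora B to centromeres and midzone, had positive log2 fold changes. Birc5, which encodes survivin, was 16.2, 15.3, 10.6 and 17.9 RPKM in control and 21.4, 22.3, 17.0 and 15.6 in Sel1l CKO, a log2 fold change of 0.36 ± 0.17 (n = 4 and 4; adjusted p = 0.286 by limma). Its 2 highest libraries were again Sel1l CKO replicates 1 and 2. Cdca8, which encodes borealin, and Incenp, the scaffold of the complex, had 0.34 and 0.23. The 7 kinesins and spindle proteins were all positive too, from 0.07 in Aspm, the spindle pole protein, to 0.35 in Dlgap5, which stabilises kinetochore fibres. Kif11, the motor that pushes spindle poles apart, was 4.69, 3.72, 3.17 and 5.03 in control and 4.69, 5.75, 3.95 and 4.09 in Sel1l CKO, where only replicate 2 lay above every control library. Its log2 fold change was 0.16 ± 0.16 (adjusted p = 0.607). Tpx2, the activator of Aurora A, Kif2c, a microtubule depolymerase, Hmmr, a spindle pole protein, and Nusap1, which bundles spindle microtubules, had log2 fold changes of 0.30, 0.28, 0.22 and 0.13.

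Among the centromere and kinetochore genes, Cenpf and Cenpe had the lowest log2 fold changes of all tested members. Cenpf, a large protein of the outer kinetochore, was 2.14, 1.31, 1.06 and 1.87 RPKM in control and 1.27, 1.82, 1.20 and 1.31 in Sel1l CKO, a log2 fold change of -0.15 ± 0.21 (n = 4 and 4; adjusted p = 0.733 by limma). Cenpe, the kinesin that moves chromosomes to the metaphase plate, was 1.53, 1.08, 0.915 and 1.501 in control and 1.11, 1.62, 0.939 and 1.01 in Sel1l CKO, a log2 fold change of -0.09 ± 0.20 (adjusted p = 0.824). In both genes Sel1l CKO replicate 1 lay below control replicates 1 and 4, unlike in Cdk1 or Plk1. Cenpa, the histone H3 variant that marks centromeres, had 0.35 and the NDC80 complex genes Spc25, Nuf2 and Ndc80, which hold the microtubules, had 0.21, 0.18 and 0.08.

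Among the cytokinesis genes, Prc1, which bundles the midzone microtubules, was 4.84, 3.83, 2.99 and 5.09 RPKM in control and 5.08, 5.74, 3.85 and 3.94 in Sel1l CKO, a log2 fold change of 0.16 ± 0.19 (n = 4 and 4; adjusted p = 0.652 by limma). The genotypes overlapped, with Sel1l CKO replicate 2 alone above every control. Racgap1 and Kif23, the subunits of centralspindlin, had log2 fold changes of 0.35 and 0.16, the midzone kinesin gene Kif20a 0.28, and Ect2, which activates RhoA at the cleavage furrow, 0.07. Anln, which ties actin to the furrow, was below the filter, with 0.572 ± 0.139 RPKM (SD, n = 4) in control and 0.822 ± 0.278 in Sel1l CKO (exact permutation p = 0.200, two-sided). Of the chromosome structure genes, Top2a was 23.8, 19.8, 17.3 and 26.8 in control and 25.2, 31.1, 21.8 and 21.8 in Sel1l CKO, a log2 fold change of 0.19 ± 0.16 (adjusted p = 0.504). Mki67 was 33.7, 23.8, 17.3 and 31.6 in control and 23.7, 32.5, 22.6 and 23.9 in Sel1l CKO, a log2 fold change of -0.02 ± 0.21 (adjusted p = 0.972). Its highest library was control replicate 1 and its lowest control replicate 3, and the 95% interval, from -0.49 to 0.45, held the median of the members.

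Within replicates 1 and 2, 36 of the 38 tested members were higher in Sel1l CKO, against 54.5% of all tested genes, with a median log2 difference of 0.38. Both Sel1l CKO libraries lay above both controls in 29 of the 38, against 35.6% of tested genes, and below both in none, against 28.0%. Over all 41 genes the differences ran from -0.14 in Cenpf to 0.64 in Nek2. Within replicates 3 and 4, 30 of 38 were higher, against 50.6%, with a median of 0.07 and a range over all 41 from -0.25 in Cenpe to 0.33 in Cdc20. There, no member had both Sel1l CKO libraries above or both below the controls, against 25.4% and 24.5% of tested genes. The difference was larger in replicates 1 and 2 in 40 of the 41 genes, Mki67 being the exception, with -0.03 and -0.01. The difference between the sets was itself tested as an interaction and passed in none of the 38, where 0.276% of tested genes passed; the smallest adjusted p was 0.239 by limma, and 1 member had an unadjusted p under 0.05, against 19.7% of tested genes.

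**Figure D3:**
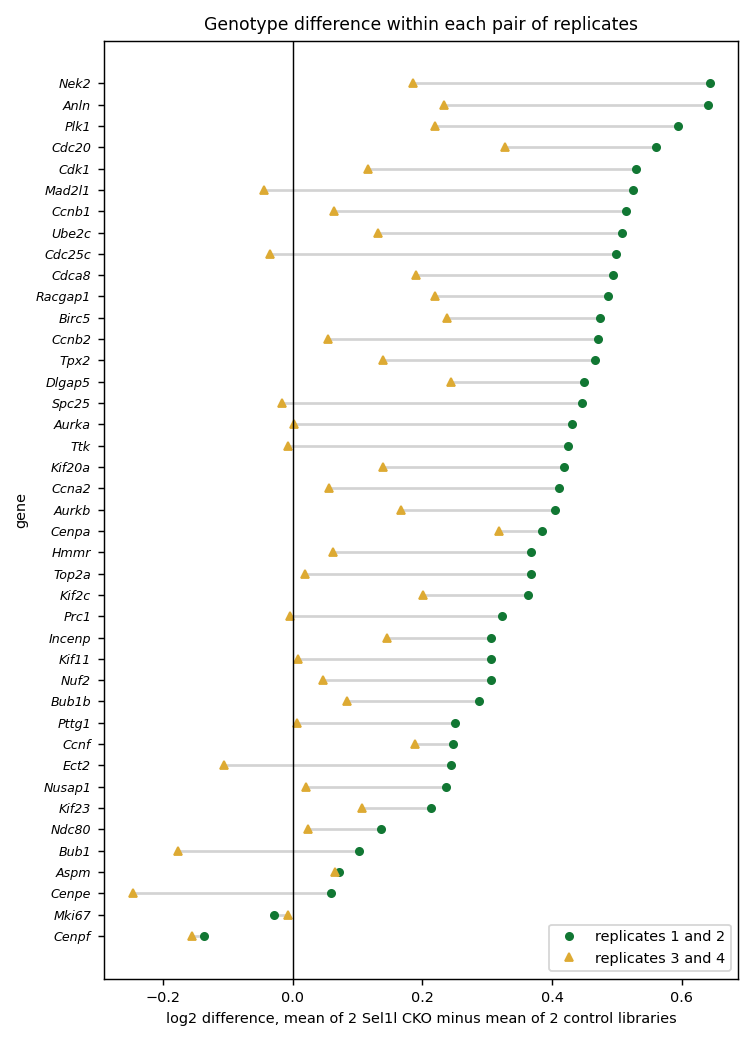
Log2 difference of the 2 Sel1l CKO minus the 2 control libraries (horizontal) for each of the 41 genes (vertical, ordered by the difference in replicates 1 and 2), in replicates 1 and 2 (green circles) and in replicates 3 and 4 (yellow triangles). Circles lie between -0.14 and 0.64 and triangles between -0.25 and 0.33, with the circle to the right in 40 genes.

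The sets were also compared over both genotypes together. Among the controls, the median deviation of the members was lowest in replicate 3 (-0.57) and highest in replicate 4 (0.17), so the control libraries did not divide by set. With genotype and set as terms, 37 of 38 members were lower in replicates 3 and 4, against 52.9% of tested genes, and the median log2 difference was -0.31 against -0.01. None passed at an adjusted p under 0.05, where 1.34% of tested genes did; the smallest adjusted p was 0.185 by limma, in Cdk1, and 10 members had an unadjusted p under 0.05, against 18.4% of tested genes. Both counts moved when single control libraries were left out. Without control replicate 4, 24 of 38 members passed for the set, where 7.25% of tested genes did. Without control replicate 3, 5 of 38 passed for the interaction (Ube2c, Nek2, Plk1, Ccnb2 and Ccnb1), where 0.875% of tested genes did. The size of the genotype difference also moved with single libraries of either genotype. The median over the tested members was 0.08 without control replicate 3, 0.14 without Sel1l CKO replicate 2 and 0.33 without Sel1l CKO replicate 4. With limma array weights, which give libraries far from the rest less weight, it was -0.02, with 15 of 38 genes positive.

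Over the 38 tested members the log2 fold change was lower in genes with longer exons (Pearson r of -0.52 with log2 length, Spearman rho of -0.44), as a description across genes that share the same 8 libraries and are no independent replicates. The median was 0.26 in the 3 members under 2 kb, 0.30 in the 6 members of 2 to 4 kb, 0.28 in the 15 of 4 to 6 kb, 0.18 in the 7 of 6 to 8 kb and 0.07 in the 7 over 8 kb. Mad2l1, whose values matched neither annotated length, is 1 of those 7, and without it the median over 8 kb was 0.03 (6 members), r was -0.54 and rho was -0.45. Over all 6414 tested genes with an annotated exon length the same measures were -0.11 and -0.18, with medians from 0.06 under 2 kb to -0.06 over 8 kb. The relation to length lay mainly in replicates 1 and 2, where rho was -0.49 in members and -0.25 in all tested genes. In replicates 3 and 4 rho was -0.27 in members and 0.00 in all tested genes. Cenpf, Mki67 and Cenpe, which were among the 4 members with a log2 fold change below 0, are among the longest of the group, while Cdc20 and Plk1 are among the shortest. Bub1 went the other way, being below 0 with 4354 bp of exon, against a median of 4919 bp over the 41 members. Nek2, among the highest at 0.41, has 4516 bp, close to that median. Aspm, with 11590 bp, had 0.07, above 0 but below the median of 0.22 over the tested members. The part of transcript length in these differences was not tested.

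**Figure D4:**
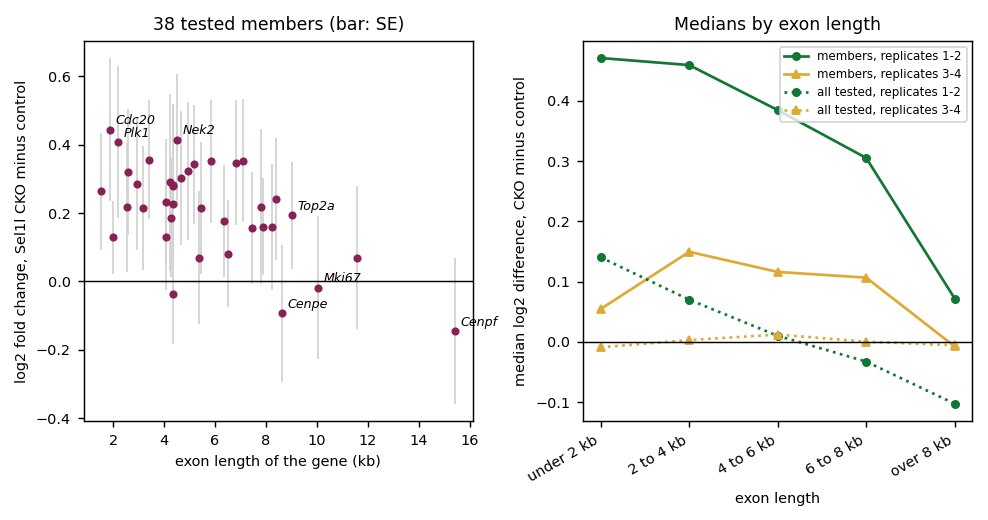
Left, log2 fold change (Sel1l CKO minus control, bars are the SE) of the 38 tested members against exon length in kb. Right, median log2 difference by exon length in members (solid) and all tested genes (dotted), in replicates 1 and 2 (green) and replicates 3 and 4 (yellow): members fall from 0.47 under 2 kb to 0.07 over 8 kb in replicates 1 and 2, all genes from 0.14 to -0.10, and in replicates 3 and 4 the all-gene line stays near 0.

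Other cell cycle genes were read from the same fit. Of 64 tested genes in a further list of mitosis genes, 57 were higher, against 52.6% of all tested genes. Their median log2 fold change was 0.17, and 2 passed the test, where 5.28% of all tested genes did. Cks1b, a small partner of CDKs that also helps the SKP2 ligase destroy p27, was 28.1, 31.6, 23.7 and 31.8 RPKM in control and 47.3, 50.6, 42.4 and 40.1 in Sel1l CKO. All Sel1l CKO libraries lay above all controls, and Cks1b rose by 0.65 ± 0.11 (n = 4 and 4; adjusted p = 0.00965 by limma), with 0.71 in replicates 1 and 2 and 0.58 in replicates 3 and 4. Smc4, a condensin subunit that compacts mitotic chromosomes, was 12.03, 11.1, 12.5 and 13.2 in control and 7.81, 10.3, 9.40 and 9.09 in Sel1l CKO, all below the controls. It fell, with a log2 fold change of -0.42 ± 0.09 (adjusted p = 0.0346), and the call was lost without any single library other than control replicate 2 or Sel1l CKO replicate 2 (adjusted p from 0.0581 to 0.102).

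Of 45 tested DNA replication genes, 42 were higher, with a median of 0.14. None passed the test, and 4 had an unadjusted p under 0.05. Over all tested genes 52.6% were higher, 5.28% passed and 20.8% had an unadjusted p under 0.05 by limma. In replicates 1 and 2, 44 of the 45 were higher, against 54.5% of all tested genes, with a median of 0.31. In replicates 3 and 4, 16 of the 45 were higher, against 50.6%, with a median of -0.05. The replication genes thus had no positive median in the second set, where that of the 38 mitosis genes was 0.07; the difference between the lists was not tested. The 15 tested subunits of the anaphase-promoting complex had a median of 0.09, with 11 higher and none called (1 at an unadjusted p under 0.05). The 10 tested transcription factors of the G2/M programme had a median of 0.06, with 6 higher and none called, also at an unadjusted p. Foxm1, which drives late cell cycle genes, was 9.47, 7.76, 6.27 and 10.1 in control and 10.6, 12.3, 8.97 and 9.21 in Sel1l CKO, a log2 fold change of 0.30 ± 0.16 (adjusted p = 0.320 by limma, n = 4 and 4). Mybl2, which encodes B-MYB, had 0.26 ± 0.13 (adjusted p = 0.285). Both genes were lowest in control replicate 3, as the members were.

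**Figure D5:**
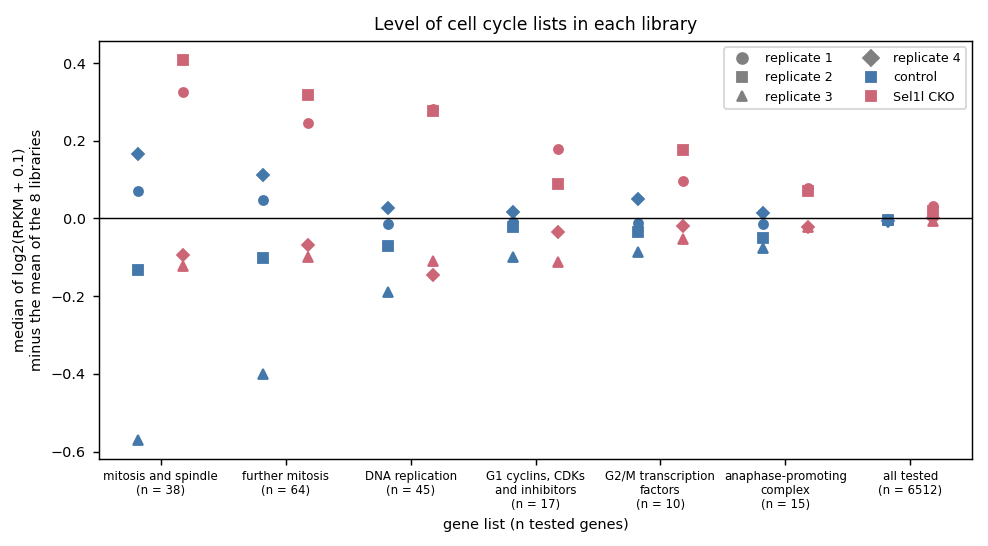
Median deviation of log2(RPKM + 0.1) from the mean of the 8 libraries (vertical) for 7 gene lists (horizontal, with the number of tested genes), in control (blue) and Sel1l CKO (red) libraries, with the marker giving the replicate. The mitosis and spindle genes spread from -0.57 in control replicate 3 to 0.41 in Sel1l CKO replicate 2, and all tested genes stay near 0.

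The G1 list of cyclins, CDKs and CDK inhibitors had 9 of 17 tested genes higher, against 52.6% of all tested genes. The median was 0.06 and none was called, with 4 at an unadjusted p under 0.05 by limma, against 20.8% of all tested genes. Ccnd3, the cyclin D of β-selection, was 3.45 ± 0.240 RPKM (SD, n = 4) in control and 3.42 ± 0.566 in Sel1l CKO. Cdkn1b, which encodes the CDK inhibitor p27, was 13.2, 12.8, 25.9 and 20.4 in control and 8.52, 9.36, 14.9 and 13.7 in Sel1l CKO. It was highest in control replicate 3, where most mitosis genes were lowest, and lowest in Sel1l CKO replicates 1 and 2, while in control replicate 4 both it and most mitosis genes were high. Within either set both Sel1l CKO libraries lay below both controls. The log2 fold change of Cdkn1b was -0.61 ± 0.26, which did not pass (adjusted p = 0.222 by limma, n = 4 and 4). With the set as a term the same difference had an SE of 0.09 and passed (adjusted p = 0.00301), and the set difference passed as well, at 0.74 higher in replicates 3 and 4 (adjusted p = 0.00421). Under that fit 2 genes of the list passed instead of none, and 8.06% of all tested genes passed instead of 5.28%. The second, Mycn, a growth-promoting MYC family gene named after its values were seen, had -0.84 ± 0.12 (adjusted p = 0.00357). Cdkn1a, which encodes p21, was also highest in control replicate 3, at 8.99 RPKM against 4.72 to 5.81 in the other controls, and had a log2 fold change of -0.33 ± 0.24 (adjusted p = 0.462). Hes1, a Notch target of the DN3 list named after its values were seen, was 23.7, 28.7, 90.7 and 59.3 RPKM in control and 19.5, 11.5, 28.1 and 31.3 in Sel1l CKO. Its highest library was control replicate 3 as well. That library was the highest in 1114 of all 6512 tested genes. In the G1 list it was the highest in 5 of the 17 tested genes and the lowest in 6.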

How the data were processed

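RNA-seq was measured in DN3 thymocytes sorted from mice, with 4 control and 4 Sel1l CKO libraries grouped by the genotype in the labels. The authors made stranded mRNA libraries, aligned paired-end reads to GRCm38 with STAR (2.5.2b per the submitters' processing notes), counted them per protein-coding gene (HTSeq) and deposited the result as RPKM. Whether counting used strand is not given in the sources used here, and 7 members overlap a gene on the opposite strand, Cdc20, Ccna2, Ube2c and Prc1 among them.

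RPKM times length gave whole reads, within 0.02, on gene spans of GENCODE M21 in 75.3% of genes with a value and on exon lengths in 3.2%. The deposited length is thus the span with introns, and whole reads and library totals could be recovered for 96.0% of genes, 3443 of them with a length solved from the values (11 members).

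Values were analysed as log2(RPKM + 0.1) for genes averaging 1 RPKM or more, with limma 3.58.1 (moderated test with trend, genotype only, two-sided, Benjamini-Hochberg) in R 4.3.3 and with Python 3.11.15, pandas 2.3.3, numpy 2.4.6 and matplotlib 3.10.9. Fold changes on this scale understate the change of low genes. Members under the filter had an exact permutation test over 70 assignments, whose smallest p is 0.0286. The scripts were tested on simulated data. Members and lists were chosen with earlier results of these data known. Values are given in full for 12 members chosen by role and for the 3 highest and 3 lowest log2 fold changes; from other lists, called genes and Foxm1, Mybl2, Cdkn1a, Cdkn1b and Ccnd3 were named. Alternatives were other pseudocounts, filters, scalings, weights, a set term, a replicate block, voom on recovered reads, exon-length RPKM (added after seeing the data) and leaving out each library.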

Additional observations from a re-analysis of the deposited data

Results flagged for a closer look

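In 4 of 100 groups of 4 libraries, 1 library lay farther from the rest than Dixon's test allows at its 95% limit. Chance gives about 5 in independent groups. These groups share the same 8 libraries and 82 of them are of members, so they are not independent and the 2 numbers are not weighed against each other. Ccnf, the F-box cyclin, was 1.44 RPKM in control replicate 3 and 2.60 to 2.82 in the other controls. The remaining 3 were Sel1l CKO replicate 2: Cenpf at 1.82 RPKM against 1.20 to 1.31 in the other Sel1l CKO libraries, Nuf2 at 1.67 against 1.12 to 1.20, and Mki67 at 32.5 against 22.6 to 23.9.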

How the results depend on the processing

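No member passed the genotype test under any of the 19 alternatives, and the median log2 fold change of the tested members stayed positive in all of them but limma array weights. There the median was -0.0214, and Ccnb1 (-0.12), Aurkb (-0.0038), Bub1b (-0.0624), Kif11 (-0.0648), Top2a (-0.0163) and Prc1 (-0.11) turned negative, and the cause was not tested. Leaving out 1 library moved the median between 0.08 (without control replicate 3) and 0.33 (without Sel1l CKO replicate 4), and log2 fold changes near 0 changed sign: Mki67 from -0.21 to 0.11, Cenpf from -0.31 to 0.0057, Cenpe from -0.25 to 0.0038, Bub1 from -0.15 to 0.0356 and Ccnd3 from -0.11 to 0.0406. The median set difference lay between -0.48 and -0.18, and calls rose from 0 to at most 24 members for the set (without control replicate 4, where 7.25% of tested genes passed) and 5 for the interaction (without control replicate 3, where 0.875% did). These fits left 1 library in a cell, which is assumed to vary like the others.

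Over all genes 344 were called, and 243 to 317 with 1 library left out, 218 with a mean RPKM of at least 5, 640 with array weights and 525 with the set as a term. Of the further mitosis genes, 1 was called without the filter and 1 to 2 with 1 library left out. Cks1b was called under every alternative, and Smc4 was lost in 8. Sel1l lost its call without the filter (adjusted p = 0.0904), with the replicate block (0.0601) and without any one of the controls or Sel1l CKO replicates 1 or 2 (0.0642 to 0.0984, limma). With the set as a term, 2 DNA replication genes (Cdc6 and Pold2, named after their values were seen) and 2 G1 genes were called.

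Deviations of same-numbered libraries had correlations of 0.16, 0.10, 0.44 and 0.01, and replicate 3 alone correlated best with its own number. The labels give no pairing, and these correlations cannot show whether same-numbered libraries belong together. With the replicate block 317 genes, no member, 1 DNA replication gene and 2 G1 genes were called, Cdkn1b among them (adjusted p = 0.00728, limma), and the median over members stayed at 0.22. The fewest reads of a member in a library were 290, in Cdc25c, which was under the filter. Depth did not follow the filter, since Pttg1, which was tested, had as few as 439, against 462 in Ttk and 776 in Anln, both under the filter.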

Other observations

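The median deviation of the 7 tested members over 8 kb of exon minus that of the 9 up to 4 kb was 0.32, 0.00, 0.17 and 0.17 on the log2 scale in control replicates 1 to 4 and -0.33, -0.02, -0.07 and -0.04 in Sel1l CKO replicates 1 to 4, with all Sel1l CKO libraries below all controls. Without Mad2l1, whose values matched neither annotated length, the same differences were 0.35, -0.01, 0.12 and 0.17 in control and -0.41, -0.05, -0.07 and -0.02 in Sel1l CKO, where control replicate 2 lay just above Sel1l CKO replicate 4. Over all tested genes the same difference was 0.13, 0.02, 0.01 and 0.05 in control and -0.15, -0.09, 0.01 and 0.02 in Sel1l CKO, where the genotypes overlapped. This comparison was chosen after the values were seen and carries no test.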
